A study of Mus musculus with 21 samples.

Results

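Metallothioneins 1 and 2 (Mt1, Mt2) and the zinc transporters Slc39a14 and Slc30a1 are 4 of the 53738 gene symbols measured by bulk RNA-seq of mouse quadriceps, and were taken by symbol across all 7 groups of the study. The mice were male wild-type C57/Bl6 animals, in 7 groups with 3 libraries each. Sedentary mice were the baseline without the bout, and untrained mice ran a graded treadmill bout to exhaustion. The paper describes treadmill acclimatization before its performance tests, the last of which was the bout. Trained mice ran by the same protocol, also to exhaustion, after 12 weeks of voluntary wheel running with no rest period in between. The paper reports better performance of trained mice in such tests, so the work done in the bout may have differed. The muscle was taken 0 h, 6 h or 72 h after the bout. No group carried a transgene, and crushed whole muscle was used, so fewer cells of a type and less RNA per cell cannot be told apart in these values.

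Zinc in the cytosol is kept low by proteins that bind it and by membrane carriers. Metallothioneins are small, cysteine-rich proteins that bind zinc and copper, and their genes are switched on by the zinc-sensing factor Mtf1 at metal response elements, and also by glucocorticoids and inflammatory cytokines. Slc39a14 is a ZIP carrier that brings zinc, iron and manganese into the cell, Slc30a1 is the exporter of the plasma membrane, and both metallothioneins and zinc carriers are expressed in skeletal muscle.

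All 4 genes are protein-coding. In the GRCm39 build with the GENCODE M39 annotation, Mt1 lies on the plus strand of chromosome 8 between 94905710 and 94906955, and Mt2 lies 5502 bp before it, on the same strand, between 94898819 and 94900207. The paralogs Mt3 and Mt4 follow further upstream in this cluster. Slc30a1 is on the plus strand of chromosome 1 between 191638808 and 191645361, with 2 exons in its canonical transcript. Slc39a14 is on the minus strand of chromosome 14 between 70540678 and 70588914, with 10 exons. The RefSeq promoter table held 3 of the 4 genes, on the build GRCm38.p6, and Slc39a14 was not among them. The 250 bases before each annotated start are given because they hold the binding letters of Mtf1, with the metal response element (TGCACNC or TGCGCNC, either strand) in capitals. They were read 5′ to 3′ on the plus strand at chr8:94178839-94179088 for Mt1, chr8:94172368-94172617 for Mt2 and chr1:191906531-191906780 for Slc30a1.
Mt1: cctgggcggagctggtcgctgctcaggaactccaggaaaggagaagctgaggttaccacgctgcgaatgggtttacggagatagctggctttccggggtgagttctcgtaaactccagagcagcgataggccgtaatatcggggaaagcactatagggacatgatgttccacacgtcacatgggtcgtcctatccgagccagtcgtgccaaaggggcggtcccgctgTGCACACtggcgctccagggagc
Mt2: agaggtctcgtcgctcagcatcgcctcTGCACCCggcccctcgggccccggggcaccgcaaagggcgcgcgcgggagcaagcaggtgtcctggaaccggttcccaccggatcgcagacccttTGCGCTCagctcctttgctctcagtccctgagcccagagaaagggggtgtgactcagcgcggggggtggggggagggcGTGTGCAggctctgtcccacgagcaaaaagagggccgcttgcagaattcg
Slc30a1: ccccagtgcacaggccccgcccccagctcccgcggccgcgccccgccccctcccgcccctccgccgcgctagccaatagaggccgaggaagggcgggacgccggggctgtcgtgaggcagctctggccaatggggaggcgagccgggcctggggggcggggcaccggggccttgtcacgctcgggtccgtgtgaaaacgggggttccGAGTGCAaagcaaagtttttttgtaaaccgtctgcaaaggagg
The 250 bases of Mt2 held 3 matches, beginning 223, 128 and 50 bases before the start, and those of Mt1 and Slc30a1 held 1 each, 23 and 43 bases before it. With the 50 bases after the annotated start included, the counts were 4 for Mt2, 3 for Mt1 and 2 for Slc30a1. Of 32851 RefSeq promoters of the same 300 bases, 25.7% held at least 1 match and 1.97% held 3 or more. The STAT element TTCNNNGAA, in 8.30% of promoters, was found in none of these 3. Within the same 300 bases the antioxidant response element TGACNNNGC, in 12.4% of promoters, was found once in Mt2, once in Slc30a1 and not in Mt1. These matches describe letters and not binding. Bases beyond the 300 were not searched, and the counts depend on the annotated start, whose use in this muscle was not tested.

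The values are in TPM, a measure of transcript abundance whose values correct for transcript length and set every library to the same total. The deposited column of untrained 0 h replicate 1 was identical to that of trained 0 h replicate 1 for all 53738 symbols, of which 25037 were above 0, while no other pair of columns shared more than 10 values above 0. The table thus holds 20 distinct libraries. Results at 0 h are given with this shared library in both groups, as deposited, and without it in both (n = 2). All 8 skeletal muscle fibre markers passed the filter on low values, with a summed level of 78979 to 104104 TPM per library, and 0 of 6 neutrophil markers passed it, with a summed level of 0.724 to 2.31 TPM. Genes of the mitochondrial genome held 37.7% to 40.6% of the TPM in the 0 h libraries and 42.2% to 46.9% in the sedentary libraries. With TPM rescaled after these genes and the 10 highest genes were removed, the 0 h log2 fold changes against sedentary muscle were 2.11 (untrained) and 2.29 (trained) for Mt1 and 2.44 and 2.61 for Mt2, all still called by limma. Those of Slc30a1 became -0.0088 and -0.004, and the medians of all tested genes became -0.052 and -0.037.

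Genes whose mean reached 1 TPM across the 21 columns were tested, 11819 in all, and the 4 genes were among them. Their means were 36.3 TPM for Mt1, 26.7 TPM for Mt2, 3.67 TPM for Slc39a14 and 1.08 TPM for Slc30a1, so that Mt1 stood above 88.5% of the tested genes and Slc30a1 above 2.29%. A gene was called changed at an adjusted p below 0.05 (limma, Benjamini-Hochberg over all tested genes) and a change of 1.5-fold or more, up or down, on the log2(TPM + 0.5) scale. This scale understates the changes of low genes such as Slc30a1. Overlap between the libraries of different groups is described in TPM as deposited, without rescaling. The share of all tested genes without such overlap was not counted.

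**Figure D1:**
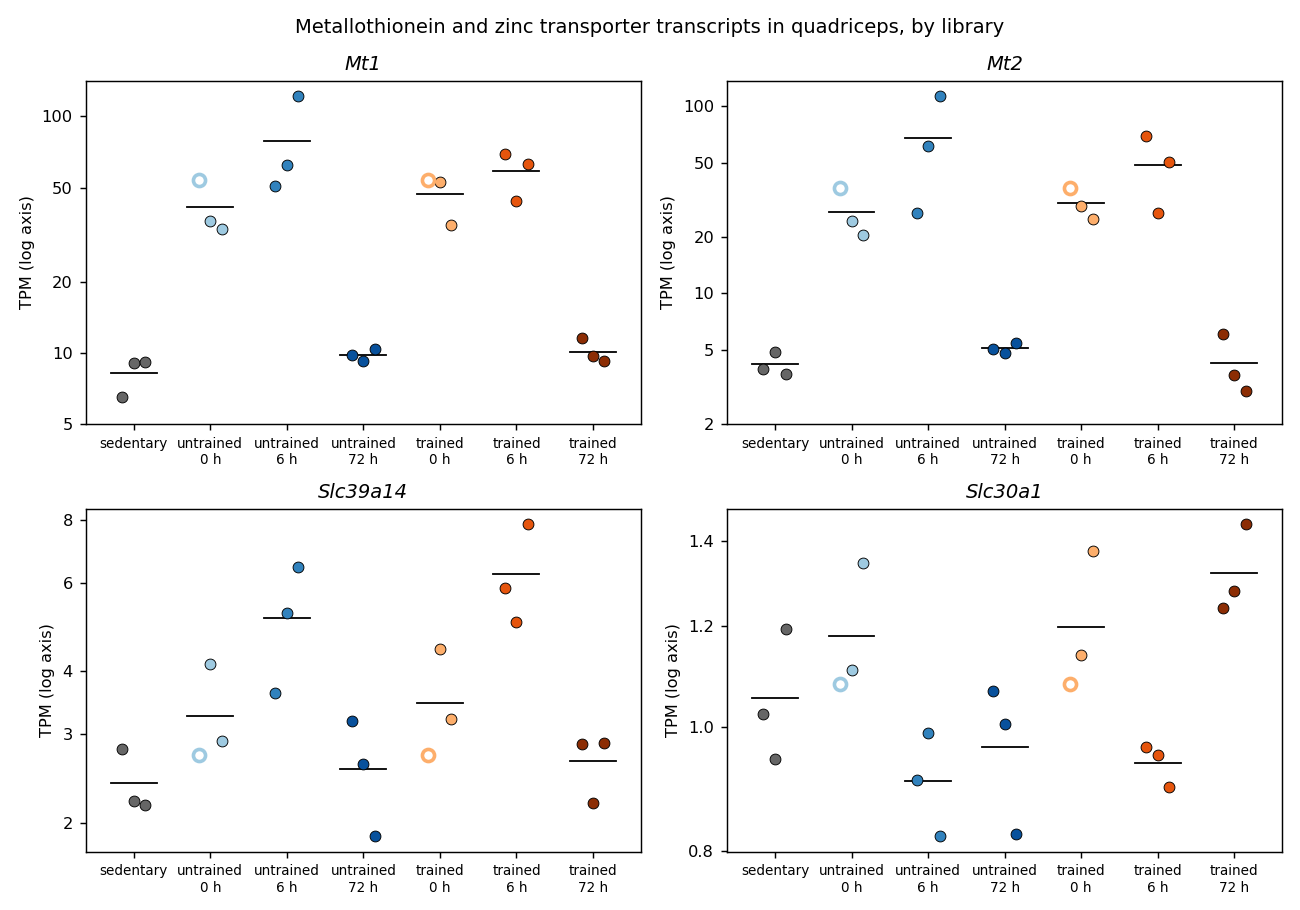
Level of each gene in TPM (log axis) by group, with a point for each library and a bar at the group mean. Open points are the column deposited in both 0 h groups; Mt1 and Mt2 are high at 0 h and 6 h and low in the sedentary and 72 h groups, Slc39a14 is highest at 6 h, and Slc30a1 stays between 0.821 and 1.44 TPM.

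In sedentary muscle, Mt1 was measured at 6.51, 9.04 and 9.12 TPM and Mt2 at 3.95, 4.88 and 3.69 TPM. Right after the bout, the untrained libraries held 54.0 (the shared library), 36.3 and 33.3 TPM of Mt1 and 36.6, 24.3 and 20.6 TPM of Mt2. The trained libraries at 0 h held 54.0 (the shared library), 52.7 and 34.7 TPM of Mt1 and 36.6, 29.5 and 25.1 TPM of Mt2. Every 0 h library stood above every sedentary library for both genes. Mt1 rose to 41.2 ± 11.2 TPM (SD, n = 3) in untrained muscle from 8.22 ± 1.49 TPM in sedentary muscle, a log2 fold change of 2.24 (SE 0.28, limma adjusted p = 6.56e-05). In trained muscle it rose to 47.1 ± 10.8 TPM, a log2 fold change of 2.44 (SE 0.28, limma adjusted p = 2.71e-05). Mt2 rose from 4.17 ± 0.626 TPM by 2.53 in untrained muscle (SE 0.42, limma adjusted p = 0.000934) and by 2.72 in trained muscle (SE 0.42, limma adjusted p = 0.00046). Without the shared library the log2 fold changes of Mt1 were 2.03 and 2.33 (limma adjusted p = 0.000958 and 0.000283), and those of Mt2 were 2.30 and 2.58 (limma adjusted p = 0.0108 and 0.00455), in untrained and trained muscle respectively.

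The 2 zinc transporters were not called at 0 h. Slc39a14 measured 2.81, 2.22 and 2.17 TPM in sedentary muscle. At 0 h it measured 2.72 (shared), 4.14 and 2.90 TPM in untrained and 2.72 (shared), 4.44 and 3.22 TPM in trained muscle. The 0 h libraries overlapped the sedentary ones only through the shared library, and the log2 fold changes were 0.36 (SE 0.22, limma adjusted p = 0.341) and 0.43 (SE 0.22, limma adjusted p = 0.221), or 0.46 and 0.57 without that library (limma adjusted p = 0.357 and 0.198). Slc30a1 measured 1.02, 0.944 and 1.19 TPM in sedentary muscle, 1.08, 1.11 and 1.35 TPM in untrained muscle at 0 h and 1.08, 1.14 and 1.38 TPM in trained muscle at 0 h, and these ranges overlapped. Its log2 fold changes of 0.11 and 0.13 (limma adjusted p = 0.559 and 0.454) lay beside medians over all tested genes of 0.10 and 0.13 in the same comparisons, and were 0.15 and 0.18 without the shared library (limma adjusted p = 0.540 and 0.391). With median-of-ratios scaling those medians were -0.0042 and -0.0026. Of the 4 genes, 2 were called in untrained muscle at 0 h, where 3.59% of all tested genes were called, and 2 in trained muscle at 0 h, where 3.74% were called. All comparisons with sedentary muscle share the same 3 sedentary libraries.

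**Figure D2:**
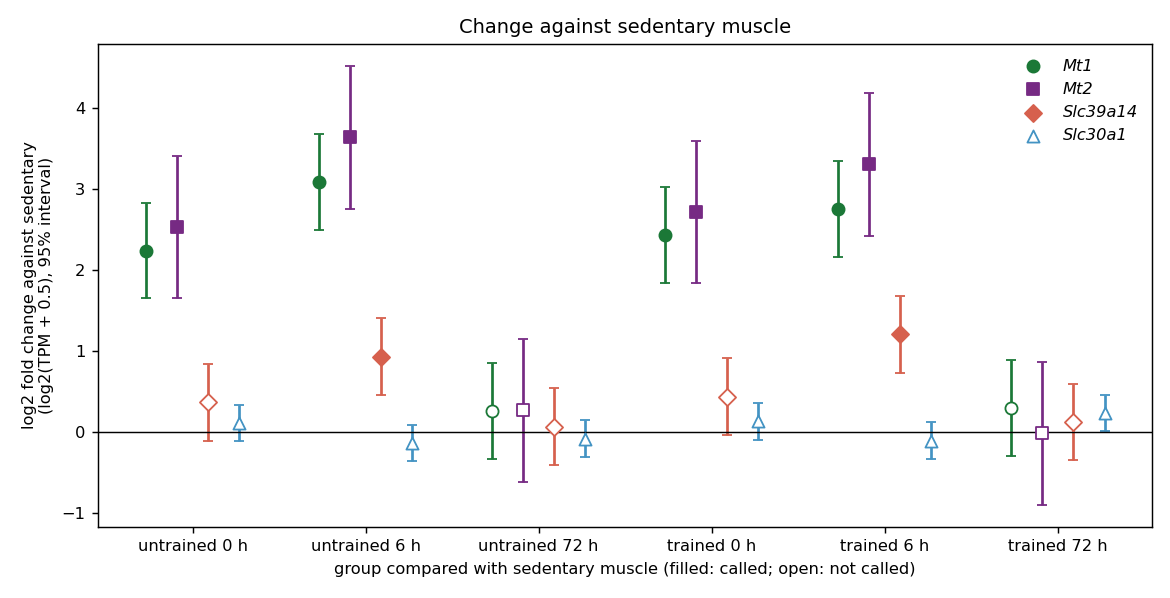
Log2 fold change of each gene against sedentary muscle with its 95% interval from limma, on the log2(TPM + 0.5) scale, for the 6 exercised groups; filled symbols were called and open symbols were not. Mt1 and Mt2 lie between 2.24 and 3.64 at 0 h and 6 h, Slc39a14 reaches 0.93 and 1.20 at 6 h, and Slc30a1 stays within 0.23 of 0.

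At 6 h, both metallothioneins and Slc39a14 stood above sedentary muscle. The untrained libraries held 51.0, 62.5 and 122 TPM of Mt1, and the trained libraries 69.4, 44.0 and 63.2 TPM. For Mt2 the untrained libraries held 26.9, 61.4 and 114 TPM and the trained libraries 69.1, 27.0 and 50.1 TPM. All 6 libraries lay above every sedentary library for both genes, and the SDs of 38.1 and 13.3 TPM for Mt1 in untrained and trained muscle were larger than at any other time, with untrained replicate 3 the highest for both genes. The log2 fold change of Mt1 was 3.09 in untrained muscle (SE 0.28, limma adjusted p = 2.61e-06), which is 8.51-fold, and 2.76 in trained muscle (SE 0.28, limma adjusted p = 3.10e-05), which is 6.75-fold. That of Mt2 was 3.64 in untrained (SE 0.42, limma adjusted p = 2.85e-05) and 3.31 in trained muscle (SE 0.42, limma adjusted p = 0.000165), which is 12.5-fold and 9.89-fold. Without untrained replicate 3 the values in untrained muscle were 2.72 for Mt1 and 3.15 for Mt2.

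Slc39a14, the importer, was measured at 3.63, 5.23 and 6.46 TPM in the untrained libraries at 6 h and at 5.86, 5.02 and 7.84 TPM in the trained ones. All 6 libraries lay above the highest sedentary library of 2.81 TPM. The gene rose by 0.93 in untrained muscle (SE 0.22, limma adjusted p = 0.0146) and by 1.20 in trained muscle (SE 0.22, limma adjusted p = 0.00272), or 1.90-fold and 2.30-fold. The call in trained muscle held when each library was left out in turn and under every other setting tried. The call in untrained muscle did not, since the adjusted p was 0.0566 without sedentary replicate 2, 0.0509 without sedentary replicate 3, 0.0517 without untrained replicate 2, 0.0785 without untrained replicate 3 and 0.127 with only the compared groups in the limma model. Slc30a1, the exporter, measured 0.908, 0.990 and 0.821 TPM in untrained and 0.964, 0.951 and 0.898 TPM in trained muscle at 6 h. These overlapped the sedentary libraries, with log2 fold changes of -0.14 and -0.11 (limma adjusted p = 0.494 and 0.579). At 6 h, 3 of the 4 genes were called higher in untrained muscle and 3 in trained muscle, where 4.42% and 3.85% of all tested genes were called.

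Markers of other cell types also moved. At 0 h the macrophage list summed to 54.0 to 59.6 TPM per library, above the sedentary range given below, and 1 of 6 endothelial markers, Kdr, was called lower in each training state. Of 4 tested smooth muscle and pericyte markers, 1, Pdgfrb, was called lower in untrained muscle at 0 h. Against sedentary muscle, 3.59% (untrained) and 3.74% (trained) of all tested genes were called at 0 h, and 4.42% and 3.85% at 6 h. In untrained muscle at 6 h the macrophage list had 2 of its 7 tested genes called higher, Cd68 at a log2 fold change of 1.62 and Csf1r at 0.61, against 0.15 and -0.17 in trained muscle at 6 h, where neither was called. Its summed level was 38.3, 80.4 and 63.3 TPM in untrained replicates 1 to 3 at 6 h, 35.7 to 52.0 TPM in the trained libraries and 42.8 to 47.2 TPM in the sedentary libraries. The fibro-adipogenic list summed to 180, 434 and 317 TPM in the same untrained replicates, against 269 to 308 TPM in sedentary muscle. Of its 6 tested genes, 1, Ly6a, was called higher in untrained muscle at 6 h, and 2, Col1a1 and Col3a1, were called lower in trained muscle at 6 h. Mt1 and Mt2 were lowest in untrained replicate 1, where both sums were lowest, and highest in replicate 3, where neither sum was the highest. The adipocyte list summed to 7.99, 12.4 and 36.9 TPM in untrained replicates 1 to 3 at 6 h and to 37.5, 11.8 and 27.6 TPM in the trained ones. At 6 h this was the order of Mt1 and Mt2 in both groups, and sedentary muscle held 9.80 to 15.6 TPM. The order did not hold at 0 h. There the highest sums, 23.6 TPM in untrained and 50.2 TPM in trained replicate 3, stood with the lowest Mt1 and Mt2 of their group. The highest sum of any library was 55.1 TPM, in untrained replicate 2 at 72 h, where Mt1 was 9.25 TPM. From 0 h to 6 h, Acta2 was called lower and Pdgfrb higher in both training states. In the same comparison Cd68 was called higher in untrained muscle, and Col1a1 and Col3a1 lower in trained muscle. Of all tested genes, 4.64% and 6.46% were called between 0 h and 6 h in untrained and trained muscle. The part of these cells in the metallothionein values was not tested.

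Between 0 h and 6 h the genes were compared within each training state. In untrained muscle, 0 of 4 genes were called, beside 4.64% of all tested genes. All 4 had an unadjusted limma p below 0.05, as did 3198 of the 11819 tested genes. The log2 differences of 6 h against 0 h were 0.85 for Mt1 (SE 0.28, limma adjusted p = 0.0605), 1.11 for Mt2 (SE 0.42, limma adjusted p = 0.0969), 0.56 for Slc39a14 (SE 0.22, limma adjusted p = 0.116) and -0.25 for Slc30a1 (SE 0.11, limma adjusted p = 0.134). Without the shared library Mt1 was called, at 1.06 (limma adjusted p = 0.0487), and the values of the others were 1.34 for Mt2, 0.46 for Slc39a14 and -0.29 for Slc30a1, none of them called. Without untrained 6 h replicate 1 both Mt1 at 1.11 and Mt2 at 1.65 were called (limma adjusted p = 0.0245 and 0.0101). In trained muscle, 1 of 4 genes was called, beside 6.46% of all tested genes. This was Slc39a14, at 0.77 (SE 0.22, limma adjusted p = 0.0214), whose 3 libraries at 6 h lay above all those at 0 h. The call was lost without the shared library (0.63, limma adjusted p = 0.0949), without trained 0 h replicate 3 (limma adjusted p = 0.0559) and without trained 6 h replicate 3 (limma adjusted p = 0.0893). Mt1 and Mt2 differed by 0.32 and 0.59 (limma adjusted p = 0.429 and 0.320), and Slc30a1 by -0.24 (limma adjusted p = 0.112) beside a median of -0.15 over all tested genes. Without the shared library these were 0.43, 0.73 and -0.29, none of them called. In both training states all Slc30a1 libraries at 6 h lay below all those at 0 h, in TPM as deposited. The medians of all tested genes were also below 0 in these comparisons, at -0.09 (untrained) and -0.15 (trained). The shared library counts among the 0 h libraries of both states.

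By 72 h, Mt1, Mt2 and Slc39a14 had fallen from their 6 h levels. The untrained libraries held 9.76, 9.25 and 10.4 TPM of Mt1, and the trained libraries 11.5, 9.67 and 9.21 TPM. For Mt2 the untrained libraries held 5.02, 4.81 and 5.45 TPM and the trained libraries 6.06, 3.65 and 3.02 TPM. These libraries did not overlap with those at 6 h for either gene. From 6 h to 72 h, Mt1 fell by 2.84 in untrained muscle (SE 0.28, limma adjusted p = 6.96e-06) and by 2.46 in trained muscle (SE 0.28, limma adjusted p = 7.39e-05). Mt2 fell by 3.37 and by 3.33 (SE 0.42, limma adjusted p = 7.38e-05 and 0.000139). Slc39a14, at 3.19, 2.62 and 1.88 TPM in untrained and 2.87, 2.19 and 2.89 TPM in trained muscle, fell by 0.86 (SE 0.22, limma adjusted p = 0.0226) and by 1.08 (SE 0.22, limma adjusted p = 0.00567). The call of Slc39a14 in untrained muscle was lost without untrained 6 h replicate 2 (limma adjusted p = 0.0659) or 3 (0.107), without untrained 72 h replicate 2 (0.0591) or 3 (0.107), with only the compared groups (0.174) and with no filter on low values (0.0547), whereas its call in trained muscle held throughout. From 6 h to 72 h, 3 of 4 genes were called in untrained and 3 in trained muscle, where 4.04% and 3.48% of all tested genes were called. Markers of other cell types were also called higher at 72 h than at 6 h. These were 3 of 5 tested red blood cell genes in untrained and 1 in trained muscle, 2 of 6 fibro-adipogenic genes in untrained (Col3a1 and Lum) and 1 in trained muscle (Lum), and 1 of 4 smooth muscle and pericyte genes in untrained muscle (Acta2). Their part in the fall of the 3 genes was not tested.

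At 72 h, 0 of 4 genes were called against sedentary muscle by limma in either training state. The background was low, with 0.00846% of all tested genes called in untrained and 0.169% in trained muscle. At an unadjusted limma p below 0.05 there were 0 of the 4 genes in untrained and 1, Slc30a1, in trained muscle. Of the 11819 tested genes, 682 and 1379 passed the same threshold. The log2 fold changes of Mt1 were 0.25 (95% interval -0.34 to 0.85) and 0.29 (95% interval -0.30 to 0.89) in untrained and trained muscle. In TPM as deposited, all 6 libraries at 72 h lay above the highest sedentary library of 9.12 TPM, the lowest of them at 9.21 TPM. This depends on the scaling. Median-of-ratios scaling divides sedentary replicate 2 (9.04 TPM) by 0.942 and untrained 72 h replicate 2 (9.25 TPM) by 1.02, which reverses their order. Mt2 differed by 0.27 (95% interval -0.62 to 1.15) and by -0.02 (95% interval -0.90 to 0.86), and its libraries overlapped the sedentary ones. The intervals do not exclude a change of Mt1 or Mt2 past the fold threshold. Slc30a1 measured 1.07, 1.00 and 0.824 TPM in the untrained libraries at 72 h and 1.24, 1.28 and 1.44 TPM in the trained ones. The trained libraries lay above all sedentary ones, at a log2 fold change of 0.23 (SE 0.11, limma adjusted p = 0.416).

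Trained and untrained muscle were compared at each time after the bout. There was no trained group without a bout, so these comparisons are of levels. A changed response to the bout, unequal work in the bout, wheel running shortly before it and a changed resting level after 12 weeks of running cannot be told apart. By limma, 0 of 4 genes were called at 0 h, at 6 h or at 72 h, where 0%, 2.01% and 0.245% of all tested genes were called. At 0 h, 143 of 11819 genes had an unadjusted limma p below 0.05, and 1 of the 3 libraries was the same in both groups. Without it the differences at 0 h were 0.30 for Mt1, 0.28 for Mt2, 0.11 for Slc39a14 and 0.025 for Slc30a1 (limma adjusted p = 1 for each). The difference of Mt1 as deposited, trained minus untrained, was 0.20 at 0 h (95% interval -0.40 to 0.79), -0.33 at 6 h (95% interval -0.93 to 0.26) and 0.04 at 72 h (95% interval -0.55 to 0.63). The 0 h interval treats the shared library as a separate one in each group. That of Mt2 was 0.19, -0.33 and -0.29, with the widest interval at 6 h from -1.22 to 0.55. The 95% interval of Slc39a14 at 6 h ran from -0.20 to 0.75 around 0.28. These intervals include differences past the fold threshold, so a moderate difference between trained and untrained muscle was not detectable with 3 libraries a group. Slc30a1 differed by 0.02, 0.03 and 0.32 (SE 0.11). At 72 h its 3 trained libraries lay above its 3 untrained ones (limma unadjusted p = 0.00883, adjusted p = 0.184), the only one of the 4 genes with an unadjusted p below 0.05 in these comparisons. At 72 h, 1769 of the 11819 tested genes had an unadjusted limma p below 0.05 between trained and untrained muscle.

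Ordered by group mean, Mt1 ran from sedentary (8.22 TPM) through untrained 72 h (9.81), trained 72 h (10.1), untrained 0 h (41.2), trained 0 h (47.1) and trained 6 h (58.9) to untrained 6 h (78.5 TPM). Between trained 72 h and untrained 0 h the ranges stood apart, from a highest value of 11.5 TPM to a lowest of 33.3 TPM, a step that was not tested. The sedentary and untrained 72 h ranges also did not overlap in TPM as deposited, which depends on the scaling as given above. Neither this nor any other pair of neighbours was called. Mt2 had its step at the same place, between untrained 72 h (5.09 TPM) and untrained 0 h (27.1 TPM). Slc39a14 ran from 2.40 TPM in sedentary muscle to 3.26 and 3.46 TPM at 0 h and 5.11 and 6.24 TPM at 6 h, and its neighbouring groups overlapped throughout. Slc30a1 had its lowest mean in untrained muscle at 6 h (0.906 TPM) and its highest in trained muscle at 72 h (1.32 TPM), with overlap between all neighbours.

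**Figure D3:**
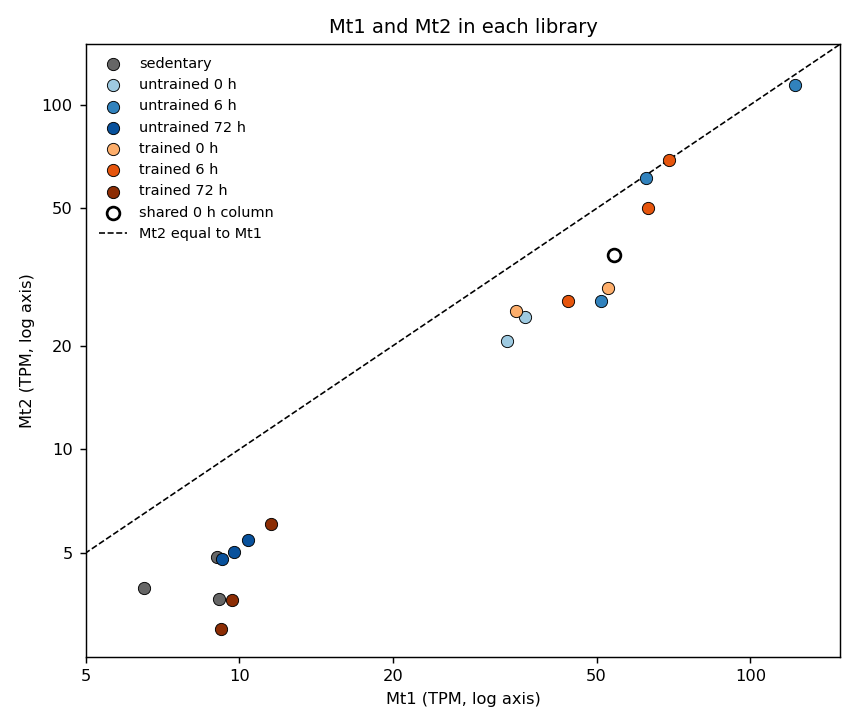
Mt2 against Mt1 in TPM (log axes), 1 point per distinct library, coloured by group, with the shared 0 h column as an open point and a dashed line where both are equal. The sedentary and 72 h libraries form the lower cloud, all below the line, and the untrained 6 h replicates 2 and 3 and trained 6 h replicate 1 come closest to the line.

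Mt1 and Mt2 moved together from library to library. The correlation of their log2 values was 0.99 over the 20 distinct libraries and 0.87 after the group means were taken out. Mt2 was below Mt1 in every library, at 0.404 to 0.606 of it in sedentary muscle, 0.618 to 0.677 in untrained and 0.559 to 0.724 in trained muscle at 0 h, and 0.328 to 0.526 over both groups at 72 h. At 6 h the ratio was 0.528, 0.982 and 0.934 in the untrained libraries and 0.995, 0.613 and 0.793 in the trained libraries. The libraries with the lowest Mt1 of their group at 6 h, untrained replicate 1 and trained replicate 2, also had the lowest ratio. Slc39a14 correlated with Mt1 at 0.81 and with Mt2 at 0.83, and within groups at 0.34 and 0.43. Slc30a1 correlated with the other genes at -0.38 to -0.32. These correlations are descriptions, since the libraries share group means and a common total.

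Mt1 and Mt2 shared 0 31-base words between their annotated transcripts, so that a read of that length tells them apart. Mt2 overlaps the antisense transcript Gm45774, which contains 656 of its 1134 words, and the library kit does not keep the strand, so reads in the overlap cannot be assigned to a strand. Gm45774 was listed at 0.223 to 0.278 TPM in sedentary muscle, 1.71 to 2.55 TPM in untrained muscle at 0 h and 1.71 to 7.37 TPM in untrained muscle at 6 h. In each group it summed to between 5.91% and 7.63% of Mt2. Slc30a1 shares 441 of 5772 words with the antisense transcript 1700034H15Rik, which stayed at or below 0.231 TPM.

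Among 9690 protein-coding candidates, the genes whose log2 values over the 20 distinct libraries were most like those of Mt1 were Mt2 (0.99), Slc25a5 (0.95), Atp6v1b2 (0.95), Lrrc58 (0.95) and Gpt2 (0.94), given as correlations. Slc25a5 is an adenine nucleotide carrier of mitochondria and Gpt2 a mitochondrial alanine aminotransferase. For Mt2 they were Mt1, Lrrc58 (0.96), Slc25a5 (0.95), Cab39 (0.93) and Ppp2ca (0.93). For Slc39a14 they were Rrp12 (0.92), Tacc2 (0.90), Musk (0.90), Ubr2 (0.90) and Usp13 (0.89), of which Musk is the receptor kinase of the neuromuscular junction. Slc30a1 was most like Sphk2 (0.87), Pdcd4 (0.85), Per3 (0.85), Nr1d2 (0.84) and Gpr155 (0.83), of which Per3 and Nr1d2 belong to the circadian clock. All these correlations include the differences between group means. After the group means were taken out, they ran from 0.35 (Mt2 with Cab39) to 0.87 (Mt1 with Mt2).

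The rest of the zinc-handling genes gave the setting. Of 25 further genes (2 metallothioneins, 9 zinc exporters, 13 zinc importers and Mtf1), 14 passed the filter on low values, and 0 of these 14 were called by limma in any of the 13 comparisons. At an unadjusted limma p below 0.05 there were 0 to 5 of the 14, depending on the comparison, beside 143 to 4560 of the 11819 tested genes. Mt3 lay below the filter at 0.267 to 1.68 TPM, and Mt4 was listed at 0 in 20 of the 21 columns. The log2 fold changes against sedentary muscle ran from -0.53 to 0.52 for the 6 other exporters tested and from -0.28 to 0.51 for the 7 other importers tested. Mtf1, the zinc-sensing factor, had a mean of 3.14 TPM and log2 fold changes between -0.14 and 0.24. Over all 13 comparisons, 3 of these genes, all importers and singled out after their values were seen, had an adjusted limma p below 0.05 with a change under the fold threshold. Slc39a10 differed by 0.51 in untrained muscle at 6 h against sedentary (limma adjusted p = 0.0306), by 0.50 against 0 h (0.0318) and by -0.52 in trained against untrained muscle at 6 h (0.0461). Slc39a1 differed by -0.21 in trained muscle at 6 h against sedentary (limma adjusted p = 0.0467) and by -0.32 against 0 h (0.00222), and Slc39a7 by -0.40 in trained muscle at 6 h against 0 h (0.0336).

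**Figure D4:**
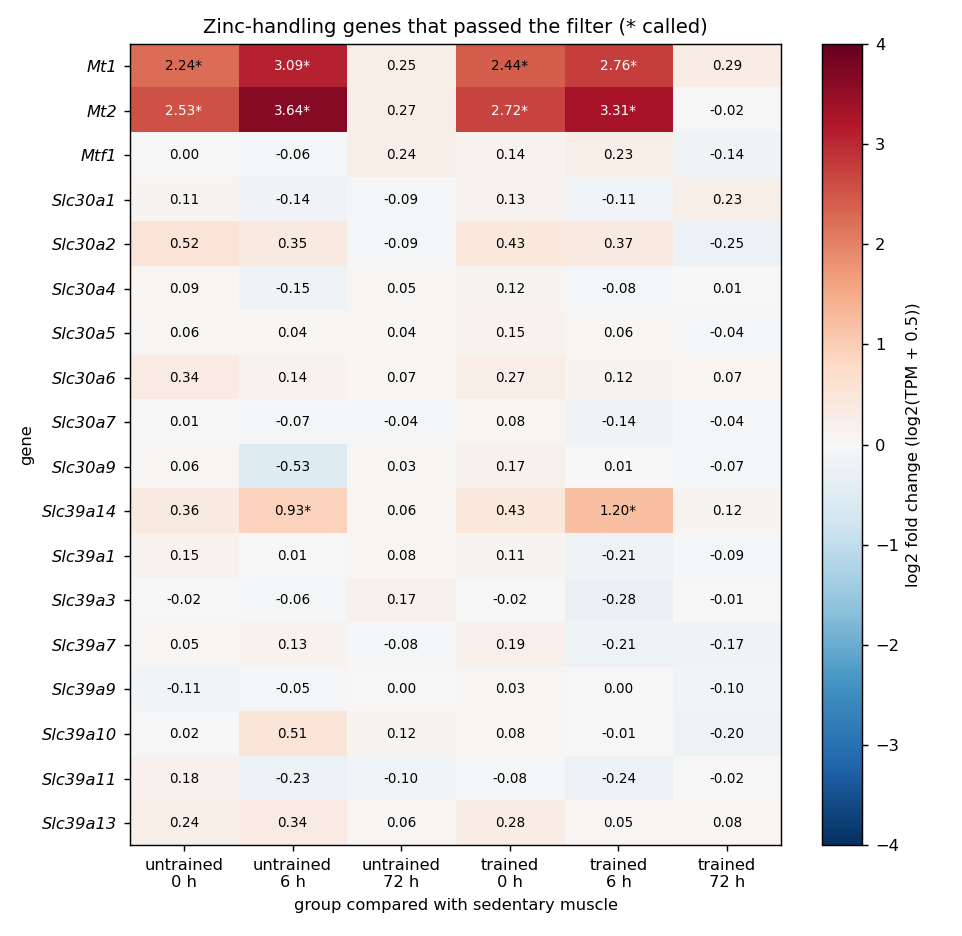
Log2 fold change against sedentary muscle, on the log2(TPM + 0.5) scale, for the 18 zinc-handling genes that passed the filter (rows) in the 6 exercised groups (columns), with the value printed in each cell and a star where limma called it. The stars stand in the rows of Mt1 and Mt2 at 0 h and 6 h and of Slc39a14 at 6 h.

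Genes that respond to the other known inducers of metallothioneins were counted in the same comparisons. Of 10 glucocorticoid-responsive genes tested, 7 were called higher at 0 h in untrained and 7 in trained muscle, where 3.59% and 3.74% of all tested genes were called. These 7 were led in both by Ddit4, a stress-induced inhibitor of mTORC1 signalling (4.10 and 4.26), the clock gene Per1 (2.87 and 3.06) and Errfi1, a feedback inhibitor of EGF receptor signalling (2.47 and 2.73), in log2 fold changes. At 6 h, 6 were called higher in untrained and 5 in trained muscle, where 4.42% and 3.85% of all tested genes were called. They were led in untrained muscle by Ddit4 (1.78), Per1 (1.48) and Fkbp5 (1.30) and in trained muscle by Fkbp5 (1.82), Ddit4 (1.72) and Cdkn1a (1.39). Klf9, Klf15 and Zbtb16 of this list were not called against sedentary muscle at 0 h or 6 h in either training state. Their means were 23.4, 9.04 and 7.97 TPM in sedentary muscle, 24.6, 8.48 and 7.69 TPM in untrained muscle at 0 h and 28.5, 10.2 and 8.45 TPM in trained muscle at 0 h. From 0 h to 6 h, Ddit4 and Per1 were called lower in both training states. Fkbp5, a regulator of the glucocorticoid receptor, differed by 0.30 and 0.50 (limma adjusted p = 0.335 and 0.0700), with means of 8.73 and 10.9 TPM in untrained and 11.1 and 16.1 TPM in trained muscle. The median of the 10 was 1.36 and 1.55 at 0 h and 0.87 and 0.67 at 6 h, beside medians of all tested genes of 0.10, 0.13, 0.01 and -0.01. Of the interleukin-6 and STAT3 response genes, 6 of 10 passed the filter on low values, and Il6, Il6ra, Socs3 and Bcl3 did not. At 0 h, 1 of the 6 was called higher in untrained and 2 in trained muscle, beside 3.59% and 3.74% of all tested genes. At 6 h, 3 were called higher in untrained and 1 in trained muscle, beside 4.42% and 3.85%. The medians of the 6 were 0.28 and 0.35 at 0 h and 0.48 and 0.32 at 6 h. Il6st, Osmr and Lifr were not called. Cebpb was called higher at 0 h (1.87 and 2.13) and at 6 h (0.91 and 0.74), Cebpd in untrained muscle at 6 h (1.09) and trained muscle at 0 h (1.07), and Stat3 in untrained muscle at 6 h (0.70). At 72 h, 1 glucocorticoid-responsive gene was called higher against sedentary muscle, Per1 in trained muscle at 1.81.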

How the data were processed

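RNA was isolated from crushed quadriceps, with 3 libraries per group, and sequenced with a kit that does not keep the strand (TruSeq RNA v2). Per the submitters' processing notes, reads were mapped to GRCm39 with STAR 2.7.9 and quantified with Salmon 1.5.0. The authors deposited TPM values per gene symbol. Columns were matched to groups by their names, and 0 columns were left unassigned. TPM keeps no counts, so library depth is unknown, counting error cannot be given, and the spread among the 3 libraries of a group sets the precision. The sources used here do not say that each library is a separate mouse, so p-values measure the spread between libraries, which may be technical.

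Values were used as deposited, as log2(TPM + 0.5). Genes averaging 1 TPM or more were tested with limma 3.58.1 (R 4.3.3), with 7 group means, a variance trend and 14 residual degrees of freedom, in 13 comparisons, and p-values were adjusted over all tested genes (Benjamini-Hochberg). The procedure was tested on simulated data. A change of 1.5-fold is the threshold the study gives on the log2 scale. Alternatives were pseudocounts of 0.1 and 1, no filter, median-of-ratios scaling, TPM rescaled after removal of mitochondrially encoded genes and the 10 highest genes, the replicate number as a block, 3 treatments of the shared 0 h library, only the compared groups, and each library left out in turn. The 4 genes, the other lists and the tests were chosen with earlier results of these data known. Besides the 4 genes, the rule for naming took other zinc genes that were called, of which there were 0, the 5 protein-coding genes most correlated with each, and up to 3 called genes per list with the largest change. Other zinc genes, marker genes and the uncalled glucocorticoid-responsive and interleukin-6 response genes in the text were named after their values were seen. Promoters came from RefSeq (GRCm38.p6) and positions from GENCODE M39 (GRCm39). The annotation release used by the authors is not given in the sources used here. Plots were made in Python 3.11.15 using matplotlib 3.10.9.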

Additional observations from a re-analysis of the deposited data

How the results depend on the processing

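The number of the 4 genes called stayed within 1.5 times of the reported number under all alternatives in 11 of 13 comparisons. The exceptions are 6 h against 0 h. In untrained muscle the count of 0 became 1 with median-of-ratios scaling, with rescaled TPM, without the shared library in either 0 h group, with it kept in trained 0 h only, and ranged from 0 to 2 with 1 library left out. In trained muscle the count of 1 became 0 with no filter, without the shared library in either group, with it kept in untrained 0 h only and with only the compared groups, and ranged from 0 to 1 with 1 library left out. The causes were not tested. The calls of Mt1 and Mt2 against sedentary muscle at 0 h and 6 h, and from 6 h to 72 h, held in all 17 settings of each comparison.

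Sign changes occurred in 11 of 52 gene comparisons, none of them called, with log2 differences of at most 0.33 in size as reported. With rescaled TPM, Slc30a1 at 0 h against sedentary muscle became -0.0088 (untrained) and -0.004 (trained), and Mt2 in trained muscle at 72 h became 0.056, or 0.0226 with median-of-ratios scaling. Slc30a1 in trained against untrained muscle at 0 h became -0.0062 with median-of-ratios scaling and -0.0251 with the shared library kept in trained 0 h only, and Slc39a14 became -0.0284 with the latter. With 1 library left out, the ranges were -0.082 to 0.23 for Slc39a14 in untrained muscle at 72 h and -0.28 to 0.17 for Mt2 in trained muscle at 72 h, both against sedentary. For trained against untrained muscle they were -0.057 to 0.087 (Slc30a1) and -0.099 to 0.23 (Slc39a14) at 0 h, -0.59 to 0.033 (Mt1), -0.87 to 0.16 (Mt2) and -0.011 to 0.076 (Slc30a1) at 6 h, and -0.052 to 0.10 (Mt1) and -0.11 to 0.20 (Slc39a14) at 72 h.

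Same-numbered libraries of different groups did not clearly deviate together (correlations from -0.12 to 0.13 over 62 pairs, median 0.018, 4 above 0.1). Over 126 pairs with different numbers the median was -0.0052, with 4 above 0.1. No pairing by number was seen, though such correlations cannot exclude one. With the replicate block, 3 genes were called in untrained muscle at 6 h against sedentary, and no count of calls changed. Where leaving out a library left 2 in a group, the spread was pooled over the groups. The labels do not give a batch, and with 3 libraries a group and no counts, the low level of Slc30a1 limits what could be detected.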
